A study of Homo sapiens with 2 samples.

Results

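The sulfatase genes STS, ARSI, ARSA, ARSB, ARSG, ARSK and IDS and the sulfatase-modifying genes SUMF1 and SUMF2 were followed in LP-1 cells with and without added HIF-2α. These 9 genes, of 18377 with a value, were listed by name with earlier results of these arrays known, STS and ARSI for their large differences, and each took the probe sets that the array annotation gives to that symbol alone. They are covered by 10 probe sets, a pair for IDS and 1 for each other gene. LP-1 is an established human multiple myeloma cell line, a tumour of plasma cells. The data are 2 whole-transcript Affymetrix arrays. The vector control array holds RNA of LP-1 cells infected with the empty vector pRUF-IRES-GFP. The HIF2A array holds RNA of LP-1 cells infected with the same vector carrying full-length human HIF-2α, a transcription factor subunit that cells degrade when oxygen is ample and whose gene is EPAS1. Both lines therefore carry the vector and its GFP. The sources used here do not give the oxygen level of the cultures or say whether each line is a pool or a clone.

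Sulfatases remove sulfate groups from steroids, lipids and the sugar chains called glycosaminoglycans. Each becomes active only after a cysteine in its catalytic site is changed to formylglycine, which the product of SUMF1 does in the endoplasmic reticulum. SUMF2 encodes a relative of that enzyme which binds it and does not replace it. Most of these sulfatases work in lysosomes, whereas the STS product sits in the membrane of the endoplasmic reticulum and frees estrone, dehydroepiandrosterone and cholesterol from their sulfates.

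Values are log2 signals as deposited, so a difference of 1 is a 2-fold ratio, and every difference is HIF2A minus vector control. A gene passed the filter on dim signals when at least 1 of its signals was 4.01 or more, which is the median, across probe sets, of their mean signal. There is 1 array per group and no replicate check, so no difference below has a test, an error or a p-value. Signals of different probe sets depend on their probes, so levels of different genes are not ranked. Bulk RNA cannot tell fewer cells with a transcript from less of it per cell.

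EPAS1 had 3.70 in vector control cells and 9.05 in HIF2A cells, the direction that the labels give. As a guide to background, olfactory receptors were used (359 genes), and their 95th percentile was 3.59 in the first and 3.58 in the second array. All 8 plasma cell markers, SDC1, CD38, TNFRSF17, XBP1, IRF4, PRDM1, MZB1 and POU2AF1, passed the filter, with signals from 6.16 to 10.47 and sums of 66.95 in the vector control and 66.03 in the HIF2A array. Of these 1, the BCMA gene TNFRSF17, was at least 2-fold lower, at 8.71 against 7.68, a difference of -1.03. Of 4 B cell markers 0 passed, of 6 T and NK cell markers 1, of 5 myeloid markers 1, and of 6 stromal and endothelial markers 4. Of all 18377 genes 11469 passed. The 4 stromal and endothelial genes were COL1A1, COL1A2, CDH5 and PECAM1, with signals from 3.80 to 5.28. Summed signals went from 13.26 in the vector control to 12.97 for B cell, 20.33 to 20.43 for T and NK cell, 16.55 to 17.36 for myeloid, and 23.77 to 24.73 for stromal and endothelial markers. In the last set PECAM1 differed by 0.92, COL1A2 by 0.27, VWF by 0.12, CDH5 by 0.10, COL1A1 by -0.13 and PDGFRB by -0.32. The part of these marker sets in the sulfatase values was not tested.

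STS and ARSI were higher in the HIF2A array, and the other 7 genes were within 2-fold. Among the 9 genes 6 were higher and 3 lower, where 52.6% of the 11469 genes past the filter were higher and 46.1% lower. Their median difference was 0.16, against 0.03 over all these genes. At least 2-fold higher were 2 of 9, where 0.706% of all genes past the filter were, and at least 2-fold lower were 0 of 9, where 0.732% were. Since STS and ARSI were chosen on these same differences, the counts describe the list and support nothing. All 9 genes reached the filter in both arrays, so none entered through its brighter array alone. None fell below the olfactory 95th percentile, and the lowest of their signals was 4.02.

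**Figure D1:**
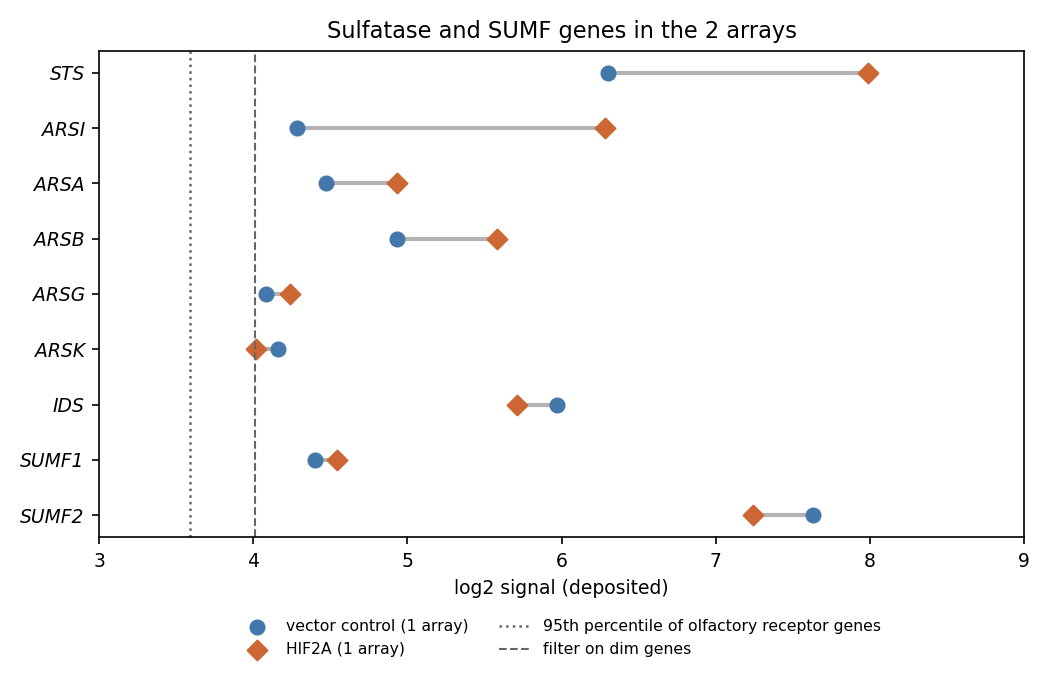
Deposited log2 signal (horizontal axis) of the 9 genes in the vector control (circles) and the HIF2A array (diamonds), 1 array each, with the olfactory 95th percentile of the vector control (dotted line) and the filter on dim genes (dashed line). ARSI goes from 4.28 to 6.28 and STS from 6.30 to 7.99, while ARSG, ARSK and SUMF1 lie close to the filter in both arrays.

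STS, the steroid sulfatase gene on the short arm of the X chromosome, gave 6.30 in the vector control and 7.99 in the HIF2A array. The HIF2A array was the higher one, by 1.69, which is 3.23-fold, the 11th largest positive difference among the 11469 genes. In both arrays 0 of the 359 olfactory receptor genes were as bright as STS. Of the 1147 genes in the same decile of mean signal 23, or 2.01%, were at least 2-fold apart in either direction, against 1.44% of all genes past the filter. Loss of this enzyme causes X-linked ichthyosis, in which cholesterol sulfate builds up in skin.

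ARSI, on chromosome 5, encodes arylsulfatase I, a close relative of arylsulfatase J. Its signal was 4.28 in the vector control and 6.28 in the HIF2A array. The HIF2A array was higher by 2.00, or 4.0-fold, the 7th largest positive difference. The vector control signal was dim, close to the median of 4.02 over all probe sets of that array. There 2 of the 359 olfactory receptor genes were as bright, and 0 in the HIF2A array. These receptors are only a guide, so whether the vector control signal stands above background was not settled. The 4.0-fold ratio rests on that dim signal. In the same decile of mean signal 26 of 1147 genes, or 2.27%, were at least 2-fold apart. With 32 added to each linear value the difference came to 1.09, while that of STS came to 1.37, so the order of the pair turned, as adding 32 shrinks dim genes more.

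**Figure D2:**
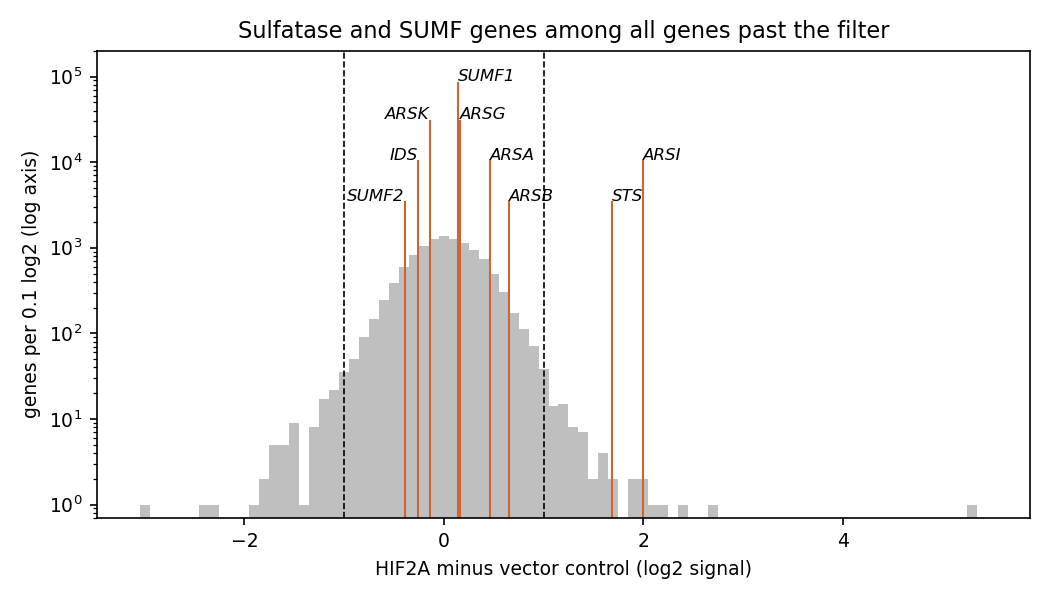
Number of genes past the filter (vertical log axis, per 0.1 log2) by HIF2A minus vector control difference, with the 9 genes as vertical lines and 2-fold either way as dashed lines. STS at 1.69 and ARSI at 2.00 lie past the upper dashed line, and the others run from -0.39 (SUMF2) to 0.65 (ARSB), among the bulk of the genes.

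HIF-2α binds DNA with its partner ARNT at sites that hold the core ACGTG or GCGTG. Both cores were looked for, on both strands, in windows from 250 bases before to 50 after each RefSeq start of the genes (build GRCh38.p14). Starts were listed for 8 of the 9 genes, in 13 windows; ARSA had none in the table. The windows of the outermost starts of STS and ARSI are shown up to the start, because these genes differed most. Lower case marks all bases except a core on either strand, which is in capitals (CACGC is GCGTG on the other strand). The STS stretch is chrX:7147040-7147289, plus strand, and the ARSI stretch is chr5:150302906-150303155, minus strand.
STS: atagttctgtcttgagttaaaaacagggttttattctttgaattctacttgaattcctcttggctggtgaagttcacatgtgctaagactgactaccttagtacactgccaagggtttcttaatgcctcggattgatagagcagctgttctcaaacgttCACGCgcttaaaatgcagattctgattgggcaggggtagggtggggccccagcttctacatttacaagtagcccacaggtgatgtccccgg
ARSI: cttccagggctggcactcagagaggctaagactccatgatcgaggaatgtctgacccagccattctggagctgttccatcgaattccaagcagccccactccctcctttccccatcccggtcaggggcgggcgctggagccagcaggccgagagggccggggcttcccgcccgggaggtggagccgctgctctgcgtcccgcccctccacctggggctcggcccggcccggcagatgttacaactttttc
The STS stretch held 1 core, GCGTG on the opposite strand, 91 bases before the start. The ARSI window held neither core, which says only that these letters are not in it. In 35116 windows of all genes 48.4% held at least 1 of the cores, 36.5% GCGTG and 21.4% ACGTG. A match is a description and not a binding site.

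Matches near the other genes are set out with 10 bases on each side, to show how they compare with that of STS. The palindrome CACGTG holds ACGTG on both strands and is shared with the E-box of other factors. It was found in 7.26% of all windows.
STS, start 2, 47 bases before it, chrX:7147655-7147679, plus strand: ctcaaggtcgCACGCatgcgtaacc
ARSB, 160 bases before the outer start, chr5:78986103-78986128, minus strand: attcaataagCACGTGactaaaggat
ARSB, 15 bases before it, chr5:78985959-78985983, minus strand: attcaatgacCACGCaacactccaa
ARSK, 92 bases before its start, chr5:95554999-95555024, plus strand: aggactcattCACGTGactggaagtg
ARSK, 35 bases before its start, chr5:95555056-95555080, plus strand: aaaggtcttaACGTGggtaaaagcg
IDS, 81 bases before its start, chrX:149505373-149505397, minus strand: gtctctcggcCACGCctattgctgc
SUMF1, 13 bases before its start, chr3:4467267-4467292, minus strand: agggctcagcCACGTGaccaaccggg
SUMF2, 185 bases before its start, chr7:56064091-56064115, plus strand: gggaccctcaACGTGgttttcctta
In all, 7 of the 13 windows held a core, where 48.4% of the 35116 windows of all genes did. With only the outermost start of each of the 8 genes, 6 windows held a core. These counts are a description. ARSB, ARSK and SUMF1 each have 1 CACGTG, and their differences were 0.65, -0.14 and 0.14. ARSG, like ARSI, had neither core. Of the 5 listed starts of STS, the windows of starts 3, 4 and 5 held neither core, and of the 2 of ARSB that of start 2 held neither.

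Among the 9 genes, ARSB and ARSA came next after STS and ARSI by positive difference. ARSB encodes the sulfatase that trims dermatan and chondroitin sulfate, and gave 4.93 in vector control and 5.58 in HIF2A cells, a difference of 0.65 or 1.57-fold. With STS and ARSI it makes 3 of 9 genes at least 1.5-fold higher, where 5.67% of all genes past the filter were, and 0 of 9 were at least 1.5-fold lower, where 4.76% were. ARSA, whose enzyme breaks down the myelin lipid sulfatide, had 4.47 and 4.93, a difference of 0.46. In the same decile of signal 17.4% of genes differed at least that much in either direction as ARSA did, and 10.6% as ARSB did.

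ARSG and ARSK, which encode sulfatases of heparan sulfate and other glycosaminoglycans, lay near the filter. ARSG gave 4.08 in vector control and 4.24 in HIF2A cells, with a difference of 0.16. ARSK had 4.16 and 4.02, with one of -0.14. The brighter array exceeded the filter by 0.23 for ARSG and 0.15 for ARSK, and 59.7% and 75.2% of genes of like signal differed as much or more. Neither direction can be read from such small differences without replicates.

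IDS encodes iduronate 2-sulfatase, which starts the breakdown of heparan and dermatan sulfate and is lacking in Hunter syndrome. Its brighter probe set gave 5.97 in vector control and 5.71 in HIF2A cells, a difference of -0.26. The dimmer one had 4.67 and 5.15, a difference of 0.48, so the probe sets point opposite ways and IDS has no settled direction. The annotation lists 8 transcript records for both. Among 333 genes with at least 2 differing probe sets past the filter, 27.0% had opposite signs between the brightest pair. The gap of 0.74 in IDS was matched or exceeded in 9.01% of these genes, against a median gap of 0.15. IDS has a nearby pseudogene, and cross-hybridization was not analysed here.

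The modifying genes were both within 1.5-fold. SUMF1, whose product makes the formylglycine that every sulfatase needs, gave 4.40 in vector control and 4.54 in HIF2A cells, a difference of 0.14, and 66.0% of genes of like signal differed as much or more. SUMF2 had 7.63 and 7.24, a difference of -0.39 or 1.31-fold lower, which 27.5% of genes of like signal matched or exceeded in either direction. Higher signals of STS and ARSI were seen beside a SUMF1 signal within 1.10-fold between the arrays. That SUMF1 signal comes from 1 probe set and was dim, 0.53 above the filter in the brighter array, so a steady SUMF1 level is not established. SUMF1 protein and sulfatase activity were not measured.

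Genes of some chromosomes, 5 and 7 among them, were shifted as a group in these arrays, so each gene was set beside its 20 nearest genes past the filter, 10 on each side. STS, listed for its large difference, exceeded every one of its neighbours. They numbered 18, because STS lies near the chromosome end, and their median was -0.06, 8 being higher and 10 lower. The 3 genes on one side were P2RY8 at -0.90, PRKX at -0.08 and PUDP at 0.22, and on the other PNPLA4 at -0.41, TBL1X at -0.05 and WWC3 at -0.48. The highest neighbour was PLCXD1, at 1.05.

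ARSI lay among genes that were mostly higher too. The median of its 20 neighbours was 0.32, with 17 higher and 3 lower. ARSI exceeded all 20, of which SLC26A2 was highest at 1.01. On one side HMGXB3 had 0.95, CDX1 0.02 and CAMK2A 0.33, and on the other TCOF1 had 0.27, RPS14 0.26 and the heparan sulfotransferase gene NDST1 0.32. Less the median of its neighbours ARSI had 1.68 and STS 1.76. Both genes were listed for their large differences, so that they exceed their neighbours follows largely from that choice and supports nothing.

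ARSB and ARSK lie on chromosome 5 as well, where the median of 455 genes past the filter was 0.28 and 74.3% were higher. The neighbours of ARSB had a median of 0.43, with 16 of 20 higher, and 3 of them, the adjacent LHFPL2 at 1.42 among them, were at or above ARSB. Less that median, ARSB had 0.22. ARSK had -0.14 beside a median of 0.33, with 15 of 20 neighbours at or above it. Whether a shift of chromosome 5 as a whole is part of the ARSI and ARSB values was not tested.

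SUMF2 lies on chromosome 7, where 521 genes had a median of -0.17 and 30.5% were higher. Its neighbours had a median of -0.16, with 14 of 20 lower, among them the adjacent chaperonin gene CCT6A at -0.67. Less that median SUMF2 had -0.22. The neighbours of ARSA (12 genes, median -0.04), ARSG (20 genes, 0.06), IDS (20 genes, -0.03) and SUMF1 (13 genes, -0.02) had medians near 0 in this window. With windows of 10 and 40 genes that of SUMF1 was 0.22 and 0.15, and that of ARSA -0.12 and 0.12.

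**Figure D3:**
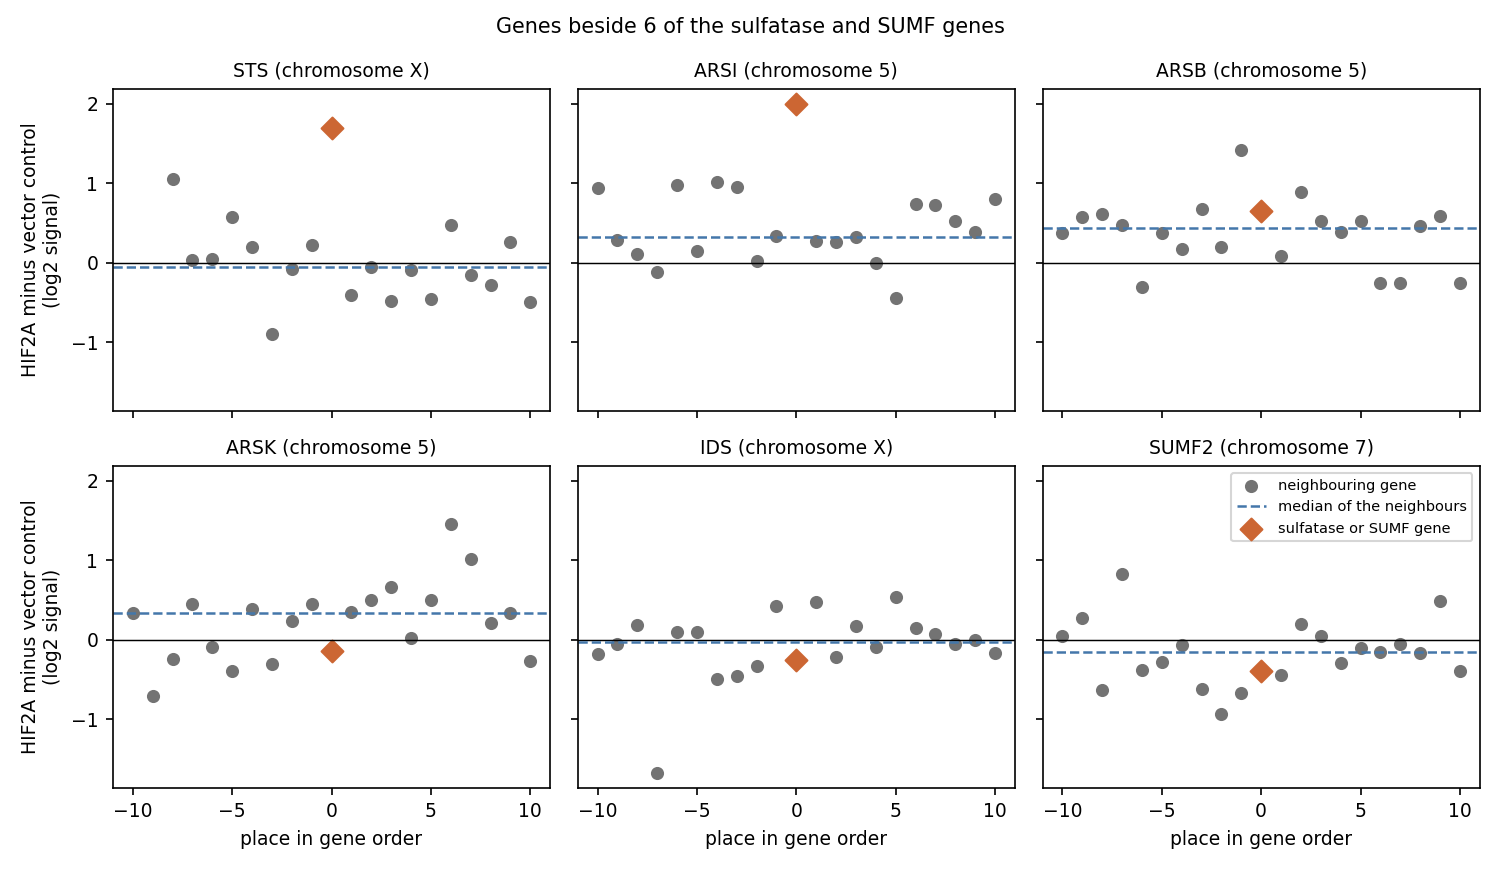
HIF2A minus vector control difference (vertical axis, log2 signal) of the genes past the filter on each side of 6 of the 9 genes, by place in gene order (horizontal axis), with the median of the neighbours as a dashed line. STS at 1.69 stands above neighbours centred at -0.06, ARSI at 2.00 above neighbours centred at 0.32, and ARSB at 0.65 lies within its neighbours. STS and ARSI were listed for their large differences.

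The rest of the sulfatase family was mostly dim. Of 10 further sulfatase genes 9 were measured, and the 6 named ARSD, ARSL, ARSF, ARSH, ARSJ and SULF1 stayed under the filter, with signals from 3.03 to 3.87. ARSJ, the closest relative of ARSI, is among these 6. The 3 past the filter were all higher, with 0 at least 2-fold and a median of 0.23. SGSH, the heparan N-sulfatase gene, had 4.93 and 5.33, a difference of 0.40. SULF2, which encodes a secreted enzyme that edits heparan sulfate outside the cell, had 8.07 and 8.30, a difference of 0.23. GALNS, the keratan and chondroitin sulfatase gene, had 6.50 and 6.61, a difference of 0.11.

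Enzymes that work with the sulfatases in lysosomes had no common direction. Among 13 past the filter 6 were higher, 6 lower and 1 equal, with a median of 0.00 and 0 at least 2-fold apart. GM2A, an activator of ganglioside breakdown, had 6.19 and 6.79, a difference of 0.60, and IDUA, the iduronidase gene whose step follows that of IDS, had 4.29 and 4.80, one of 0.51. GUSB, the beta-glucuronidase gene on chromosome 7, had 7.78 and 7.40, a difference of -0.38, and HGSNAT had 5.37 and 5.01, one of -0.36. The genes that sort enzymes to lysosomes or mark them had a median of 0.27 over 13. Of these 9 were higher, 4 lower and 0 at least 2-fold apart, beside 52.6% higher and a median of 0.03 over all genes. In that list the lysosomal channel gene MCOLN1 had a difference of 0.44 and the transcription factor gene TFE3 one of 0.42, whereas the lysosomal membrane gene LAMP1 had -0.41 and M6PR and LAMP2 each -0.28.

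Genes of sulfate uptake and activation, which supply the reaction that sulfatases reverse, went both ways. Of all genes past the filter 52.6% were higher, 46.1% lower and 0.706% at least 2-fold higher. Among 9 genes of the list past the filter 6 were higher and 3 lower, with a median of 0.21, and 1 was at least 2-fold higher. This was SLC26A2, the sulfate transporter gene, which gave 3.90 in vector control and 4.91 in HIF2A cells, a difference of 1.01 or 2.01-fold. It passed the filter through the HIF2A array alone. SLC26A2 is also a neighbour of ARSI on chromosome 5, with 3 genes past the filter between them. The related gene SLC26A6 had a difference of 0.52. PAPSS1, which makes the activated sulfate donor PAPS, had 6.42 and 5.79, a difference of -0.63, and SLC35B3, a carrier of PAPS into the Golgi, had 4.82 and 4.09, one of -0.73. PAPSS1 lies on chromosome 4, where 375 genes had a median of -0.10. Among the cytosolic sulfotransferases, SULT1E1, SULT2A1 and SULT2B1, which oppose STS, were under the filter. SULT1A1 passed it, with 4.24 in vector control and 4.49 in HIF2A cells, a difference of 0.25. SULT1A2 and SULT1A3 were not measured.

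The Golgi enzymes that add sulfate to glycosaminoglycans had a median of 0.05 over 15 genes, with 8 higher, 6 lower and 1 equal, and 0 at least 2-fold apart. The chondroitin sulfotransferase genes CHST12 and CHST13 each had a difference of 0.56, from 7.24 to 7.80 and from 3.90 to 4.46, and CHST13 passed the filter through the HIF2A array alone. The lowest were HS6ST3 at -0.38 and CHST14 at -0.22.

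Genes that make, import or sense steroid hormones, the pathway that STS feeds, had no common direction. Among 11 past the filter 5 were higher and 6 lower, with a median of -0.18 and 0 at least 2-fold apart. HSD17B4, a peroxisomal dehydrogenase gene on chromosome 5, had 6.59 and 7.14, a difference of 0.55, and the steroid reductase gene SRD5A1, also on chromosome 5, had one of 0.39. AKR1C1 had 4.16 and 3.61, a difference of -0.55, and HSD17B8 had 6.84 and 6.42, one of -0.42. AKR1C1 passed the filter through the vector control alone, and has near-identical relatives whose transcripts its probes may share. Another 17 genes of the list were under the filter, with signals from 2.14 to 3.87, among them the aromatase gene CYP19A1, the oestrogen receptor genes ESR1 and ESR2, and SLC10A6 and SLCO2B1, which encode importers of steroid sulfates.

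**Figure D4:**
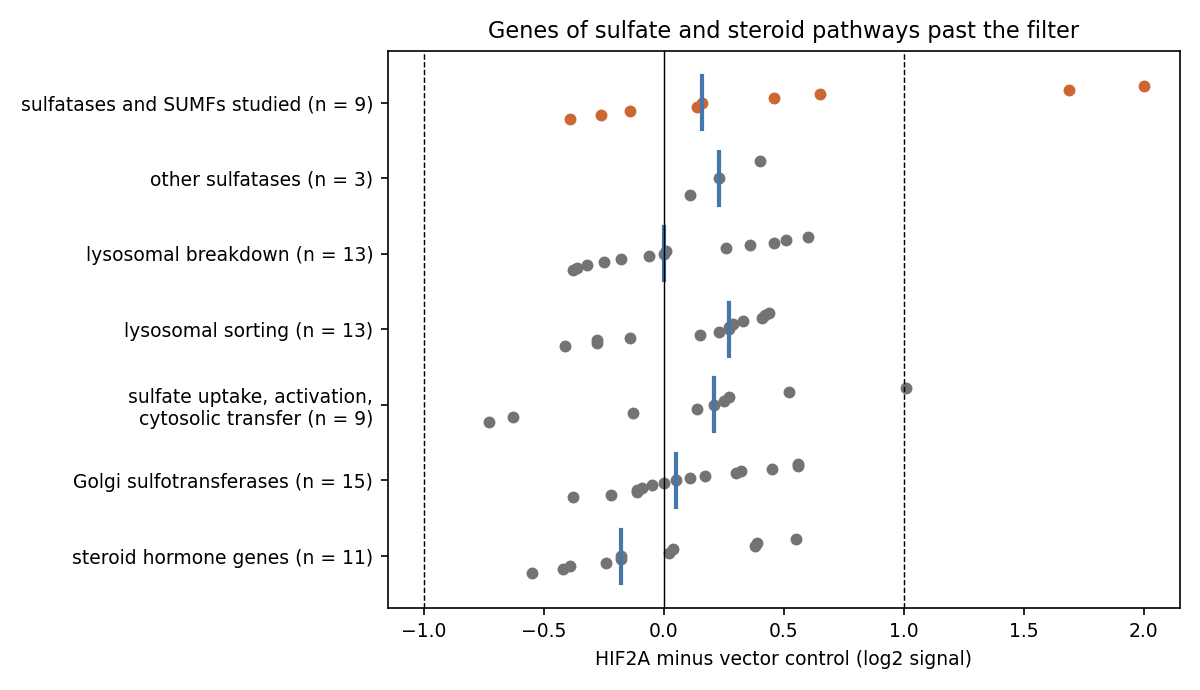
HIF2A minus vector control difference (horizontal axis, log2 signal) of each gene past the filter, as 1 point, in the 9 genes studied and in 6 lists of related genes, with the median of each as a vertical bar and 2-fold either way as dashed lines. Outside STS and ARSI, SLC26A2 at 1.01 is the one gene past a dashed line.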

How the data were processed

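RNA of the 2 LP-1 lines was measured on whole-transcript Affymetrix arrays. The authors deposited 1 log2 signal per probe set, for which the submitters' processing notes name Affymetrix Expression Console. Algorithm, version, background correction and centring: not given in the sources used here. That the scale is log2 follows from the highest value, 13.97, since natural logs of 16-bit readings end at 11.09.

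Of 28869 probe sets 19310 carry 1 gene symbol, and 19279 of these matched the RefSeq table of GRCh38.p14, used for names and gene order. Probe sets with several symbols (1752) or none (7807) were left out. A gene took its probe set with the highest mean. With 1 array per group no test was run. The genes and lists were chosen with earlier results of these data known. In each list the genes at least 2-fold apart were to be named or, where fewer than 2, those with the 2 highest and 2 lowest differences. Cell type markers, genes under the filter, SULT1A1, PLCXD1, LHFPL2 and CCT6A were named after their values were seen. A planned comparison of protein sequences was not made. Promoter sequences are from RefSeq. Alternatives were quantile normalization, median and loess centring (span 0.3, 3 robust passes), 32 added on the linear scale, other probe sets, filters and folds, and neighbours subtracted. The code was tested on simulated data. Python 3.11.15, numpy 2.4.6, pandas 2.3.3, statsmodels 0.14.6 and matplotlib 3.10.9 were used.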

Additional observations from a re-analysis of the deposited data

How the results depend on the processing

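With 1 array per group no array could be left out, and no paired analysis was possible because each group has a single array. Over the settings of scaling, offset, probe set and neighbours STS ran from 1.37 to 1.76 and ARSI from 1.09, with 32 added on the linear scale, to 2.02, and the counts among the 9 genes at least 2-fold higher or lower stayed within 1.5 times in all settings, folds of 1.5 and 3 included. Over all genes past the filter the counts fell to 18 higher and 24 lower with 32 added, from 81 and 84. Quantile normalization, median centring and loess centring moved STS by at most 0.03. IDS came to 0.11 with the mean of its probe sets and 0.48 with the dimmer one, and ARSB to 0.22 less its neighbours. Of 63 such values 4 changed by 0.34 or more, a robust SD of the differences of all genes past the filter. Values of genes with 1 probe set cannot change with the choice of probe set. Of 54 list medians 9 moved by at least 0.1. With 32 added, lysosomal sorting had 0.12, sulfate uptake and activation 0.10 and steroid hormone genes -0.07. Without a filter the other sulfatases had 0.12 and sulfate uptake and activation 0.10. With the filter at the 75th percentile, which 5 of the 9 genes passed, sulfate uptake and activation had -0.13 and Golgi sulfotransferases 0.18. Less their neighbours, the other sulfatases had 0.08 and sulfate uptake and activation 0.10. A filter only changes which genes enter a median, and adding 32 shrinks dim genes by construction. With windows of 10 or 40 genes the medians around ARSI were 0.26 and 0.43. Signals close to the filter limit ARSG, ARSK, SUMF1 and the vector control signal of ARSI.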

Other observations

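The sulfatase and SUMF genes and the lists of related genes were also counted by chromosome. Cell type markers, and neighbours outside the lists, were left out. Of the 73 past the filter, 8 lie on chromosome 5, namely ARSI, ARSB, ARSK, SLC26A2, NDST1, GM2A, SRD5A1 and HSD17B4. Of these 7 were higher and 1, ARSK, was lower, with a median of 0.57, beside 74.3% higher and a median of 0.28 over all 455 genes of that chromosome. The 65 on other chromosomes had a median of 0.05, with 36 higher, 27 lower and 2 equal, beside a median of 0.02 over 11014 genes. SLC26A2, NDST1 and GM2A are close to ARSI in gene order, with 3, 2 and 11 genes past the filter between. The count by chromosome was made after the values were seen. It includes ARSI, listed for its large difference, and SLC26A2, which passed the filter through the HIF2A array alone, so it is a description and supports no difference from the rest of the chromosome.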
